A study of Drosophila melanogaster with 17 samples.

Results

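Brains of flies that expressed the neuropathy mutant of human tyrosyl-tRNA synthetase, TyrRS-E196K, were compared with brains of flies that expressed the same mutant with its nuclear localization signal disrupted, TyrRS-E196K-NLS (the paper writes the disrupted signal as a deletion sign before NLS). The comparison was defined by the sample labels alone and took in 8 of the 17 libraries of the series, 4 of each genotype. In all genotypes the pan-neuronal driver nSyb-Gal4 was present, and the flies were 10 days old. Control flies carried the driver with no transgene (nSyb>+, 3 libraries) and were used as a reference for the side on which a gene had moved, and the 3 TyrRS-WT and 3 TyrRS-WT-NLS libraries gave the same signal change in the wild-type protein. RNA came from whole dissected brains, so glia, retina-associated tissue, blood cells and fat body attached to the brain could be sampled with the neurons. Reads were counted on fly genes, so the human transgene itself was not measured here.

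Tyrosyl-tRNA synthetase charges tyrosine onto its tRNA in the cytoplasm, and a short basic stretch lets it enter the nucleus, where it meets chromatin and transcription factors. Dominant mutations in it, E196K among them, cause a form of Charcot-Marie-Tooth neuropathy in people. The question of the comparison was which brain transcripts depend on the mutant protein being able to enter the nucleus.

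The genotypes differed in more than the signal. According to the methods, TyrRS-E196K flies carried 1 copy of the transgene and TyrRS-E196K-NLS flies carried 3 copies, so copy number, insertion sites and the genetic background of the lines changed together with the signal, and these cannot be told apart. The wild-type pair carried equal numbers, at 2 copies each, but its lines could differ in insertion sites and background as well. By the study's account the transgenes were expressed at similar levels in all genotypes, other than a somewhat lower one in TyrRS-WT-NLS. The white gene w, whose short form marks the pUAST vector that carried the transgenes, was measured at 140, 126, 127 and 113 CPM (the counts of a gene, with every library scaled to the same total on genes) in the 4 TyrRS-E196K libraries. It was measured at 211, 210, 223 and 222 CPM in the 4 TyrRS-E196K-NLS libraries and at 26.8 to 31.0 CPM in control, and the groups did not overlap (log2 difference between the mutant genotypes -0.78, adjusted p = 2.98e-06). Hsp70Bb, a heat shock gene with near-identical copies in the genome and with sequence related to the promoter of pUAST, was at 64.5 to 108 CPM, 154 to 207 CPM and 2.36 to 2.96 CPM in the same order (-1.13, adjusted p = 0.00583). Both genes were higher in the mutant genotype with more copies, although TyrRS-WT and TyrRS-WT-NLS, with 2 copies, had less w than TyrRS-E196K with 1, at 81.7 to 100 and 62.0 to 69.7 CPM.

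Depth was similar in the mutant genotypes, at 41070861 to 49770268 counts on genes in TyrRS-E196K and 45508624 to 55485321 in TyrRS-E196K-NLS, and lower in control, at 29380481 to 41859207. Some libraries stood apart in a few genes. TyrRS-E196K replicate 4 held 78.7 CPM of roX1 and 2.97 CPM of roX2, RNAs of the male X chromosome, against 18.8 to 24.1 and 0.254 to 0.384 CPM in the other 3 libraries of its genotype. TyrRS-E196K replicate 3 had the lowest yolk protein transcript Yp1 of the 8, at 1900 CPM against 5361 to 8428 CPM. Control replicate 2 differed from the other control libraries in Sting and genes that go with it, as described below. The labels do not name the sex of the flies, nor which libraries shared 1 of the 2 sequencing batches.

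Of 16163 genes tested, 905 differed between TyrRS-E196K and TyrRS-E196K-NLS at an adjusted p under 0.05, which is 5.6% of them, with 403 higher (2.49%) and 502 lower (3.11%) in TyrRS-E196K. Of the 9388 genes whose mean over the 8 libraries reached 1 CPM, 701 were called (7.47%), and in 677 of these the 4 and 4 libraries did not overlap, as they did not in 17.4% of all genes at that level. Leaving out any 1 of the 8 libraries left between 620 and 796 calls, and 519 of the 905 were made in all 8 of those fits. Against control, 1027 genes were called for TyrRS-E196K (6.35%) and 774 for TyrRS-E196K-NLS (4.79%), and the 2 counts share the control libraries. Both fell when control replicate 3 was left out, to 440 and 479.

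Neuropeptide transcripts were the group with the highest share of calls. Neuropeptides are cut from larger precursors, stored in dense core vesicles and released by small sets of peptidergic neurons, where they carry signals on sleep, feeding, metabolism and water balance. Of 38 neuropeptide genes tested, 17 were lower in TyrRS-E196K and 1 was higher, 47.4% of the list beside 5.6% of all genes. The median log2 difference over the list was -0.49, beside 0 over all genes tested, and 33 of the 38 lay below 0.

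Pdf encodes pigment-dispersing factor, the peptide by which the lateral clock neurons set daily rhythms (chromosome 3R from 26455462 to 26456141, build BDGP6). It was at 55.4, 46.9, 44.8 and 55.0 CPM in TyrRS-E196K and at 173, 168, 157 and 159 CPM in TyrRS-E196K-NLS, with 187, 168 and 247 CPM in control. Every TyrRS-E196K library lay below every other library of the series, and the log2 difference was -1.70 (standard error 0.12, adjusted p = 6.97e-08). AstC, the precursor of allatostatin C, was at 90.2, 89.7, 79.2 and 90.8 CPM against 187.7, 178.6, 191.9 and 195.8 CPM, with 192 to 226 CPM in control (-1.11, adjusted p = 2.00e-07). Of 12 clock genes 0 was called by edgeR, with a list median of -0.05, 1 gene at an unadjusted p under 0.05 and 0 called by DESeq2.

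The insulin-like peptides Ilp2 and Ilp3, made by neurosecretory cells of the medial brain that act on growth and sugar metabolism, were both lower. Ilp2 was at 101, 117, 68.7 and 116 CPM in TyrRS-E196K and at 277, 240, 231 and 275 CPM in TyrRS-E196K-NLS, around 182 to 229 CPM in control (-1.34, adjusted p = 6.47e-05). Ilp3 was at 18.1, 12.0, 15.5 and 18.1 CPM against 45.0, 39.9, 40.9 and 45.7 CPM, with 31.1 to 37.5 CPM in control (-1.43, adjusted p = 1.43e-05). Both genes overlap CG32052 in the annotation, and the libraries did not record strand, so reads of the shared stretch cannot be assigned with certainty. Dsk, the drosulfakinin precursor, which the same neurosecretory cells also make, was at 80.4 to 102 CPM against 131 to 143 CPM (-0.63, adjusted p = 0.000315).

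ITP, the ion transport peptide of water balance, was at 119.6, 115.3, 118.6 and 136.1 CPM in TyrRS-E196K, against 239, 225, 246 and 258 CPM in TyrRS-E196K-NLS and 206 to 265 CPM in control (-0.98, adjusted p = 1.15e-06). Dh44, a diuretic hormone related to corticotropin-releasing factor, was at 138 to 168 CPM against 221 to 284 CPM (-0.75, adjusted p = 1.47e-05). SIFa, the SIFamide precursor of a few large medial neurons that act on sleep and feeding, was at 7.05 to 9.18 CPM against 14.5 to 20.9 CPM (-1.04, adjusted p = 0.000166). In each of these genes all 4 TyrRS-E196K libraries were below all 13 others.

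The remaining 9 that fell were Trissin (-0.83), Ms, the myosuppressin precursor (-0.83), Nplp1 (-0.66), natalisin (-0.65), Hug, the hugin precursor (-0.60), Proc, the proctolin precursor (-0.49), AstA (-0.48), Nplp2 (-0.35) and sNPF, the short neuropeptide F precursor (-0.32), each given as its log2 difference. The calls of Proc, Nplp2 and sNPF were weak, with adjusted p from 0.0411 to 0.0491, and were lost in 9, 10 and 10 of 18 alternative fits, whereas the other 14 kept theirs in all 18. The gene that was higher, Nplp4, was at 0.576 to 1.19 CPM against 0.182 to 0.431 CPM, with 1.09 to 1.52 CPM in control (1.41, adjusted p = 0.00576). A further 17 neuropeptide genes that reached a mean of 1 CPM were not called, 15 of them with a difference below 0. The largest of these differences was that of Eh, eclosion hormone, at 0.189 to 1.54 CPM against 3.00 to 5.88 CPM (-2.67, adjusted p = 0.0614).

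**Figure D1:**
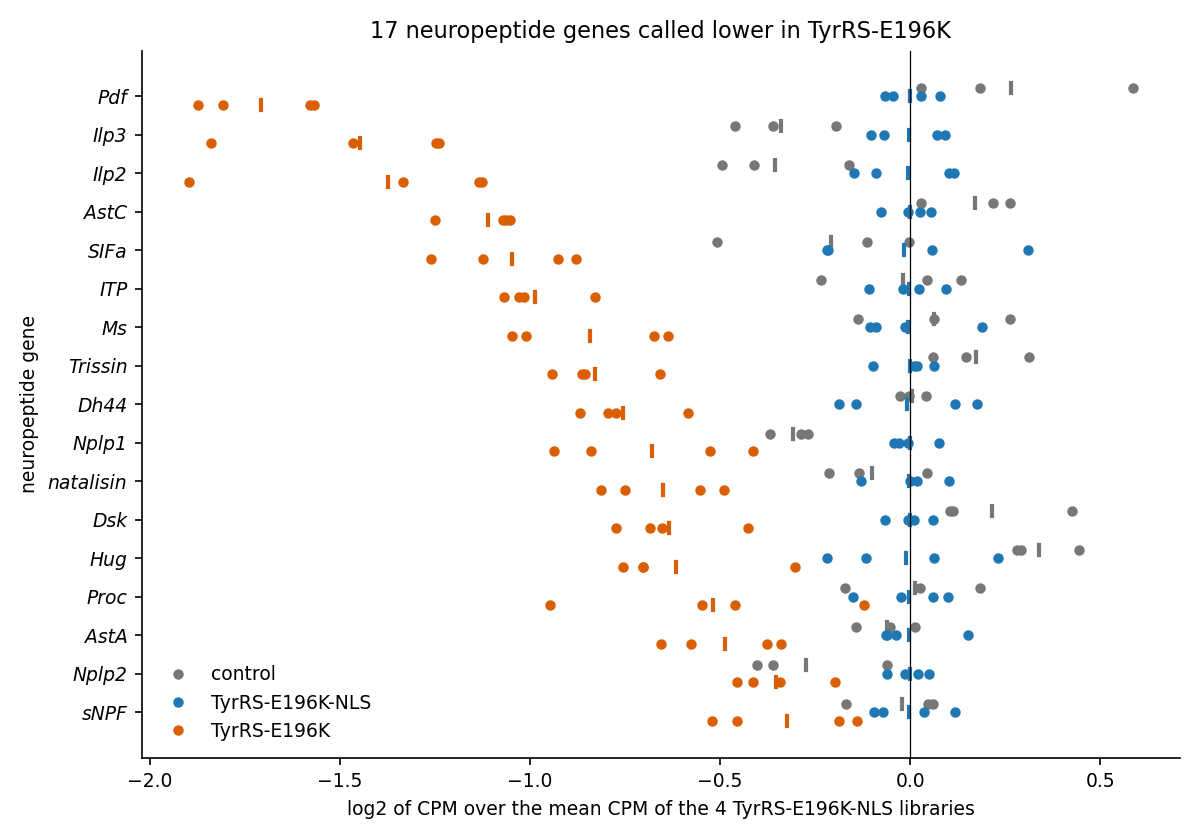
Each row is one of the 17 neuropeptide genes lower in TyrRS-E196K and each dot one library, as the log2 of its CPM over the mean CPM of the 4 TyrRS-E196K-NLS libraries (the vertical line at 0), with short bars at group means. The TyrRS-E196K dots lie to the left of the TyrRS-E196K-NLS dots without overlap in 16 of the 17 genes, all but Proc, while control dots lie near TyrRS-E196K-NLS in most rows.

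In 15 of the 17 genes the control mean lay nearer to the mean of TyrRS-E196K-NLS than to that of TyrRS-E196K on the CPM scale. The exceptions were Nplp1, where control was about midway, and Nplp2, at a mean of 1938 CPM in TyrRS-E196K, 2053 in control and 2469 in TyrRS-E196K-NLS. The comparisons with control share the control libraries with each other and the mutant libraries with the comparison above. Against control, 19 neuropeptide genes were lower in TyrRS-E196K and 0 higher (median log2 -0.47, beside 3.32% lower and 3.03% higher of all genes), whereas in TyrRS-E196K-NLS 2 were lower and 0 higher (median 0.02, beside 2.16% and 2.63%). Over the 17 genes the differences from control ran from -1.99 to -0.08 in TyrRS-E196K. In TyrRS-E196K-NLS they ran from -0.34 to 0.35, with 0 called by edgeR or by DESeq2 and 7 at an unadjusted p under 0.05. In 14 of the 17 all TyrRS-E196K libraries were below all 7 libraries of TyrRS-E196K-NLS and control, and in 12 they were below all 13 other libraries. The 17 were chosen as lower than TyrRS-E196K-NLS, and that choice favoured such a separation. Of the 405 genes of any kind called lower at 1 CPM or more, TyrRS-E196K was below those ranges in 195 and 71. The 12 neuropeptide genes were part of these 71. Among all genes at 1 CPM or more, called or not, TyrRS-E196K was outside those ranges, in either direction, in 7.32% and 1.56%.

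The summed neuropeptide level was 4117 to 4836 CPM in TyrRS-E196K, 6206 to 6539 in TyrRS-E196K-NLS, 5761 to 6164 in control, 5353 to 5683 in TyrRS-WT and 5301 to 6256 in TyrRS-WT-NLS. TyrRS-E196K lay below the other 4 genotypes in this sum. In bulk RNA, fewer peptidergic cells and less transcript per cell cannot be told apart. Of 18 markers of neurons in general, 0 was called by edgeR, 1 by DESeq2 and 3 had an unadjusted p under 0.05, with summed levels of 10520 to 12180 CPM in TyrRS-E196K and 11070 to 11480 CPM in TyrRS-E196K-NLS. Leaving out TyrRS-E196K replicate 4, the library with raised roX RNAs, gave 17 lower and 1 higher again, and over the 18 alternative fits the count of lower genes ran from 14 to 22.

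In the wild-type protein the neuropeptide genes stayed closer together. With TyrRS-WT against TyrRS-WT-NLS, 0 of the 38 was called by edgeR, 2 by DESeq2, and 5 had an unadjusted p under 0.05. The list median was -0.04, and over the 17 genes the differences ran from -0.22 for Ms to 0.55 for Ilp3. The test of the difference between the mutant and wild-type contrasts was passed by 11 of the 17, which had been chosen on the mutant difference that enters it. For Pdf that difference was -1.49 (adjusted p = 0.000107), with 122 to 145 CPM in TyrRS-WT and 130 to 178 CPM in TyrRS-WT-NLS. For Ilp3 it was -1.98 (adjusted p = 0.000107), with 76.5 to 129 CPM in TyrRS-WT and 65.5 to 73.1 CPM in TyrRS-WT-NLS.

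The genes for making and releasing peptides were mostly not called. These genes, like those of the Sting paragraphs below, were chosen after their values were seen. The exception was dimm, the transcription factor that sets the secretory state of peptidergic neurons, at 2.88, 4.05, 3.84 and 3.02 CPM in TyrRS-E196K and 5.84, 6.79, 7.99 and 5.31 CPM in TyrRS-E196K-NLS (-0.91, adjusted p = 0.0020). The control mean, 4.71 CPM, lay between the means of the mutant genotypes, and its libraries, at 4.30 to 5.48 CPM, overlapped TyrRS-E196K-NLS. Neither mutant genotype differed from control by test (adjusted p = 0.16 for TyrRS-E196K and 0.188 for TyrRS-E196K-NLS). The differences of the processing enzymes were 0.12 for Phm and -0.17 for Pal2, which amidate peptides, -0.09 for the convertase amon, -0.15 for its partner 7B2 and -0.13 for the carboxypeptidase svr, and that of Caps, a factor of dense core vesicle release, was -0.16, with adjusted p between 0.335 and 0.68.

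Sting and several genes that respond to it were among the largest differences. In flies, cGAS-like receptors sense nucleic acids and make cyclic dinucleotides, Sting binds these and signals through the NF-kappaB factor Relish, and antiviral genes such as Nazo and the Srg genes follow. Sting (listed as CG1667, chromosome 2R from 9842686 to 9845512) was at 204, 206, 211 and 154 CPM in TyrRS-E196K and at 11.1, 14.1, 10.9 and 12.7 CPM in TyrRS-E196K-NLS, a log2 difference of 3.99 (standard error 0.82, adjusted p = 0.0118). In control it was at 11.2, 175 and 12.9 CPM, so replicate 2 matched TyrRS-E196K and replicates 1 and 3 matched TyrRS-E196K-NLS. TyrRS-WT was at 54.7 to 204 CPM and TyrRS-WT-NLS at 107 to 225 CPM.

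In 4 more genes control replicate 2 also lay within the range of TyrRS-E196K, with control replicates 1 and 3 below that range. In Srg3 both of the latter were still above all TyrRS-E196K-NLS libraries, as control replicate 3 was in Srg2. Srg3 (CG33926) was at 82.0 to 177 CPM in TyrRS-E196K, at 9.08 to 16.0 CPM in TyrRS-E196K-NLS and at 29.4, 176 and 44.2 CPM in control (3.44, adjusted p = 0.00274). The non-coding RNA CG32368 was at 174 to 266 CPM, 3.56 to 8.27 CPM and 2.86, 183 and 4.34 CPM in that order (5.28, adjusted p = 0.0178, a call lost in 4 of 18 alternatives). Nazo (CG11671), at 5.96 to 16.9 CPM against 0.16 to 0.325 CPM, was at 0, 9.02 and 0.295 CPM in control (5.34, adjusted p = 0.0425, a call lost in 10 of 18 alternatives). Srg2 (CG42825), at 0.615 to 7.41 CPM against 0.0201 to 0.114 CPM, was at 0.0707, 5.20 and 0.364 CPM in control (5.80, adjusted p = 0.0228, lost in 7 of 18).

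Not every gene of the group passed the test. Srg1 (CG13641) was at 32.8 to 47.4 CPM in TyrRS-E196K and 7.89 to 17.3 CPM in TyrRS-E196K-NLS, without overlap, but was not called (1.76, adjusted p = 0.245). The antiviral gene pastrel, pst, was at 698 to 926 CPM against 404 to 460 CPM, with 353, 799 and 387 CPM in control (0.93, adjusted p = 0.0407, lost in 9 of 18). Rel, which encodes Relish, was at 185, 209, 201 and 175 CPM against 74.4, 86.9, 91.5 and 128 CPM, with 65.7, 105 and 62.1 CPM in control (1.01, adjusted p = 0.00525).

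For Sting, the side that had moved depended on control replicate 2. With all 3 control libraries, neither mutant genotype differed from control in Sting (log2 1.55, adjusted p = 0.323 for TyrRS-E196K, and -2.44, adjusted p = 0.127 for TyrRS-E196K-NLS). Without control replicate 2 the values were 4.01 (adjusted p = 0.00121) and 0.02 (adjusted p = 1). In that fit Nazo and CG32368 passed the test for TyrRS-E196K against control too, at 5.91 (adjusted p = 0.033) and 5.91 (adjusted p = 0.000632), as did Srg1, Srg3 and pst, but not Srg2. TyrRS-E196K-NLS was then above control as well in Srg1 (2.92, adjusted p = 0.0324) and in Cyp304a1, a detoxification gene described below (3.45, adjusted p = 0.0275). With all 3 control libraries, Rel was higher in TyrRS-E196K than in control (1.31, adjusted p = 0.00239), as it was with any 1 of them left out, and Srg3 was lower in TyrRS-E196K-NLS than in control (-2.74, adjusted p = 0.0144). The difference between the mutant and wild-type contrasts was not called for Sting (adjusted p = 0.0982), and for Rel it was (1.56, adjusted p = 0.0125). For Rel the wild-type difference was -0.55 (adjusted p = 0.432), with means of 146 CPM in TyrRS-WT and 214 CPM in TyrRS-WT-NLS. CG32368, Srg3, Nazo and pst, like Sting, were above all TyrRS-E196K-NLS libraries in both wild-type genotypes. In TyrRS-WT-NLS, CG32368 was at 109 to 250 CPM, Srg3 at 64.4 to 162 CPM and Nazo at 6.90 to 20.4 CPM. In Srg1 TyrRS-WT overlapped TyrRS-E196K-NLS, and Srg2 was at no more than 0.590 CPM in both wild-type genotypes.

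The receptor gene cGlr2 (CG30424) went the other way. It was at 3.44, 4.47, 5.09 and 4.07 CPM in TyrRS-E196K and at 18.3, 16.1, 19.6 and 16.3 CPM in TyrRS-E196K-NLS (-2.04, standard error 0.11, adjusted p = 8.72e-10). Control was between them at 12.0, 11.4 and 12.4 CPM, with no library apart, and both mutant genotypes differed from it (-1.49, adjusted p = 1.74e-07, and 0.56, adjusted p = 0.00534). Of the wider innate immunity list, 2 genes were higher and 1 was lower of 61 tested, 4.92% beside 5.6% of all genes, while 50 of the 61 lay above 0, with a median log2 difference of 0.50. Against control the median of the list was 1.31 in TyrRS-E196K, with 6 higher and 0 lower, and 0.50 in TyrRS-E196K-NLS, with 2 higher and 0 lower. In TyrRS-WT against TyrRS-WT-NLS the list median was 0.43, with 1 higher and 2 lower. The summed level was 3215 to 5128 CPM in TyrRS-E196K, 2175 to 4829 in TyrRS-E196K-NLS and 1652 to 2269 in control. It was 4139 to 11100 CPM in TyrRS-WT and 3170 to 4186 in TyrRS-WT-NLS. The list gene lower in TyrRS-E196K than in TyrRS-E196K-NLS, at a level above 1 CPM, was CG18107, an immune-induced peptide of the Bomanin family. It was at 6.67 to 10.9 CPM against 23.2 to 27.0 CPM, with control at 7.43 to 9.75 CPM near TyrRS-E196K (-1.54, adjusted p = 3.6e-07).

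**Figure D2:**
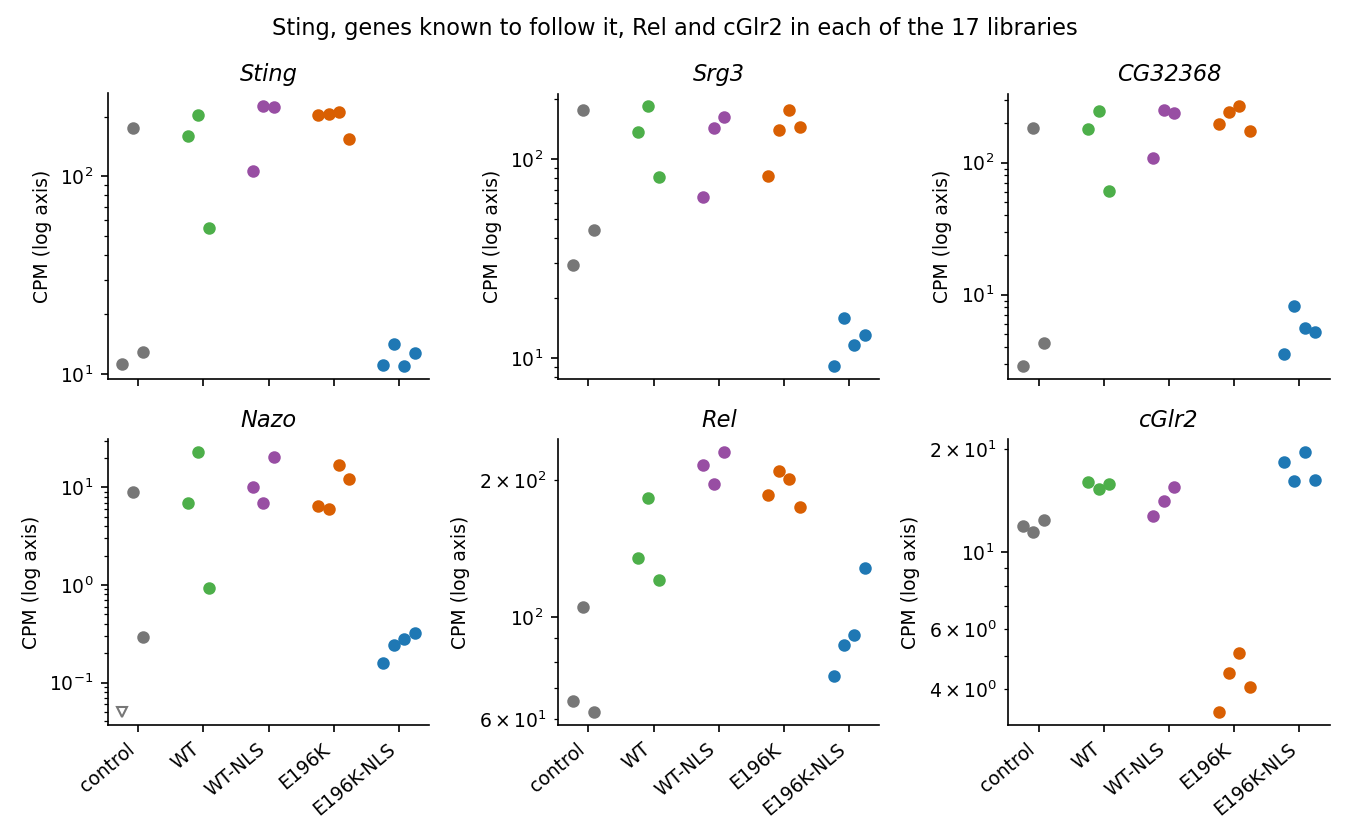
CPM on log axes of 6 genes in each of the 17 libraries, by genotype, with dots in the order of replicate number and an open triangle, drawn at 0.05, for a library with 0 counts. In Sting, Srg3, CG32368 and Nazo, control replicate 2 stands with the TyrRS-E196K libraries and control replicates 1 and 3 stand lower, while cGlr2 is lowest in the 4 TyrRS-E196K libraries.

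Transcripts of factors by which nuclear TyrRS is thought to act were little changed. The paper's evidence on these factors includes protein binding and the acetylation of E2F1 protein, which RNA levels do not measure. The fly gene of tyrosyl-tRNA synthetase, Aats-tyr, was at 50.5 to 56.4 CPM in TyrRS-E196K and 53.5 to 71.1 CPM in TyrRS-E196K-NLS (-0.22, adjusted p = 0.296). E2f1, the cell cycle factor, differed by 0.05 and its partner Dp by -0.0048, and gem, bon and the histone deacetylase Rpd3 differed by -0.11, 0.13 and -0.02, all with adjusted p of 0.357 or more. Of 12 genes of this list 1 was higher (8.33%, beside 5.6% of all genes). It was Gcn5, a histone acetyltransferase, at 68.6 to 82.2 CPM against 55.0 to 63.4 CPM (0.31, adjusted p = 0.0308, lost in 5 of 18 alternatives). nSyb, whose promoter drives the transgenes, did not differ (0.04, adjusted p = 0.892).

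Of 48 DNA replication and repair genes, many of them known targets of E2F, 1 was higher and 2 were lower. That is 6.25% of the list, near the 5.6% of all genes. mre11, a nuclease of break repair, was at 23.4 to 26.2 CPM against 14.0 to 19.7 CPM, and control at 25.6 to 30.3 CPM was on the side of TyrRS-E196K (0.59, adjusted p = 0.00105). The mitotic phosphatase stg was at 1.23, 1.33, 0.768 and 1.80 CPM against 3.74, 8.15, 1.63 and 12.3 CPM (-2.33, adjusted p = 0.0125, lost in 1 of 18), and the checkpoint kinase lok at 2.40, 3.74, 3.51 and 3.80 CPM against 5.11, 8.75, 3.95 and 12.8 CPM (-1.19, adjusted p = 0.0432, lost in 10 of 18). Both were spread widely among the TyrRS-E196K-NLS libraries, with replicates 2 and 4 high.

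The mitotic kinase Greatwall, gwl (chromosome 3R from 18746370 to 18750360), was at 36.4, 28.2, 26.8 and 22.3 CPM in TyrRS-E196K. It was at 1.85, 4.84, 0.763 and 7.44 CPM in TyrRS-E196K-NLS and between 0.345 and 1.73 CPM in the 9 other libraries (2.93, adjusted p = 0.0102, lost in 1 of 18 alternatives). CG6695, a gene chosen after its values were seen, was at 187, 183, 160 and 158 CPM in TyrRS-E196K and at 48.8 to 54.9 CPM in TyrRS-E196K-NLS, with 51.1 to 56.5 CPM in control (1.73, adjusted p = 1.46e-10). In both genes TyrRS-E196K was above all 13 other libraries. In CG33648 it was so as well, at 1.49 to 2.05 CPM against 0.0434 to 0.140 CPM (4.52, adjusted p = 3.21e-07).

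Over all 701 called genes at 1 CPM or more, the control mean lay nearer to TyrRS-E196K-NLS in 389 (55.5%) and nearer to TyrRS-E196K in 312, and in 432 it lay between the 2 genotypes. The share nearer to TyrRS-E196K-NLS over all genes at that level was 58.5%. All 4 TyrRS-E196K libraries were outside the range of TyrRS-E196K-NLS and control in 341 called genes, and all 4 TyrRS-E196K-NLS libraries were outside the range of TyrRS-E196K and control in 297, with 57 genes counted in both. Called or not, the shares of genes at that level were 7.32% and 5.21%. Against all 13 other libraries, TyrRS-E196K stood apart in 101 called genes, 30 higher and 71 lower, and TyrRS-E196K-NLS in 149, which were 63 lower and 86 higher in that genotype. Called or not, this held for 1.56% and 1.96% of genes at that level. In these counts both genotypes had genes of their own.

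Several of the largest differences came from TyrRS-E196K-NLS. CG17669, the fly gene of a dynein assembly factor (chromosome 2R from 18452737 to 18454462), was at 15.4, 19.4, 20.2 and 16.7 CPM in TyrRS-E196K and at 0.616, 0.431, 0.361 and 0.434 CPM in TyrRS-E196K-NLS. The other 9 libraries held 14.0 to 17.9 CPM, so the level was low in 1 genotype of 5 (5.28, standard error 0.15, adjusted p = 4.25e-14). CG4650, a gene at 5.92 to 12.9 CPM in TyrRS-E196K and 3.48 to 13.5 CPM in the other 9 libraries, was at 0.0187 to 0.26 CPM in TyrRS-E196K-NLS (6.61, adjusted p = 1.00e-05). CG31683 was at 6.76, 11.1, 7.33 and 9.84 CPM in TyrRS-E196K, at 0.137, 0.15, 0.140 and 0.282 CPM in TyrRS-E196K-NLS and at 2.61 to 3.29 CPM in control, so that each mutant genotype differed from control in its own direction (1.53, adjusted p = 0.000418, and -4.08, adjusted p = 8.98e-09).

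Others were highest in TyrRS-E196K-NLS. Ir94d, an ionotropic receptor gene, was at 2.37, 2.16, 2.89 and 2.69 CPM there and at 0 to 0.0576 CPM in all 13 other libraries (-6.41, adjusted p = 1.95e-07). Su(Ste):CR42418, one of the many near-identical copies of a repeat that silences Stellate genes in the male germ line, was at 5.61, 0.862, 2.33 and 2.75 CPM there, at 0 to 0.0424 CPM in TyrRS-E196K, at 0 in control and at up to 0.0431 CPM in the wild-type pair other than TyrRS-WT replicate 1, at 0.605 CPM (-6.60, adjusted p = 0.00342). Reads of such copies cannot be assigned to one of them with certainty. On the Y chromosome, 8 of 43 genes tested were called, all lower in TyrRS-E196K, and 6 of the 8 were Su(Ste) copies, with fdy and CR41509 as the others. The summed level of the Y-linked genes was 1.82 to 6.29 CPM in TyrRS-E196K-NLS and 0.167 to 0.688 CPM in the 13 other libraries, and the 4 TyrRS-E196K-NLS libraries had roX1 levels of 19.6 to 25.8 CPM, within the range of the others.

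Genes of detoxification moved in both directions. Of 87 cytochrome P450 genes tested, 8 were higher and 10 lower in TyrRS-E196K, 20.7% of the list beside 5.6% of all genes. Cyp12d1-d, which breaks down foreign compounds and has a near-identical neighbour, had 487 reads over the 4 TyrRS-E196K libraries and 1 read over the 4 TyrRS-E196K-NLS libraries, a ratio of 515 with an exact 95% counting interval from 92.0 to 20390. That interval pools the reads and leaves out the spread between libraries. The log2 difference by edgeR was 8.36 (standard error 1.02, adjusted p = 0.000381). It was at 0.891, 1.96, 4.78 and 2.75 CPM in TyrRS-E196K, at 1.10 to 5.82 CPM in TyrRS-WT, and at 0 to 0.0227 CPM in control and TyrRS-WT-NLS. Cyp6a8 was at 15.9 to 35.3 CPM against 0.0456 to 0.862 CPM, with 5.97 to 12.4 CPM in control (5.91, adjusted p = 0.00294). Cyp6t3 rose by 1.68 on the log2 scale and Cyp4ac1 fell by 1.02. Cyp304a1, at 47.8 to 131 CPM against 2.29 to 6.29 CPM, was at 0.459, 21.97 and 0.318 CPM in control and so was another gene high in control replicate 2 (4.27, adjusted p = 0.0338, lost in 7 of 18).

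Of 69 genes of glutathione and glucuronosyl transferases, 4 were higher and 13 lower, 24.6% of the list beside 5.6% of all genes. CG17322, a UDP-glucuronosyltransferase, was at 22.2 ± 1.77 CPM in TyrRS-E196K and 6.20 ± 0.897 CPM in TyrRS-E196K-NLS (SD, n = 4 each), without overlap, with 16.8 to 24.5 CPM in control (1.84, adjusted p = 1.23e-08). CG15661, of the same family, fell by 0.75 on the log2 scale and Ugt58Fa rose by 0.60. The juvenile hormone epoxide hydrolases Jheh2 and Jheh3, chosen after their values were seen, were lower in TyrRS-E196K than in all 13 other libraries, by -0.58 (adjusted p = 8.6e-05) and -0.96 (adjusted p = 1.76e-05).

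Housekeeping and synaptic groups held few calls. None of 92 cytosolic ribosomal protein genes was called by edgeR, with 20 at an unadjusted p under 0.05 and 9 called by DESeq2, and none of 18 genes of the integrated stress and unfolded protein responses, with 6 and 2. None of 21 synaptic vesicle genes or 19 voltage-gated channel genes was called by either tool, with 1 and 2 at an unadjusted p under 0.05. Of 32 aminoacyl-tRNA synthetases 2 were higher, Aats-val (0.34) and Aats-asp (0.58), and 1 was lower, the mitochondrial CG5414 (-0.28). That is 9.38% of the list, beside 5.6% of all genes. The calls of Aats-asp and CG5414 were each lost in 10 of 18 alternatives. Of 24 heat shock genes only Hsp70Bb was called, of 31 motor and tubulin genes only betaTub60D (1.86, high in control replicate 2 as well), and of 11 activity-regulated genes only CG8910 (0.52, lost in 5 of 18). These were 4.17%, 3.23% and 9.09% of the lists, beside 5.6% of all genes. Of 17 genes of JNK signalling and cell death, egr, the fly tumour necrosis factor, was lower (-0.46) and puc, a phosphatase that restrains JNK, was higher (0.34, lost in 6 of 18), 11.8% of the list.

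Transcripts of the mitochondrial genome were lower for 3 of 27 genes tested, 11.1% beside 5.6% of all genes. The list median was -0.53, with 23 of the 27 below 0, and 14 of the 27 reached a mean of 1 CPM. In TyrRS-WT against TyrRS-WT-NLS the list median was -0.36, with 0 called. mt:CoIII, a subunit of cytochrome c oxidase, was at 4309, 4708, 4211 and 4552 CPM against 6787, 5821, 6186 and 6472 CPM, with 6659, 4295 and 4975 CPM in control (-0.51, adjusted p = 0.0177, lost in 3 of 18 alternatives). mt:ND3 and mt:CoII differed by -0.62 and -0.48, and their calls were lost in 8 and 9 of 18 alternatives.

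**Figure D3:**
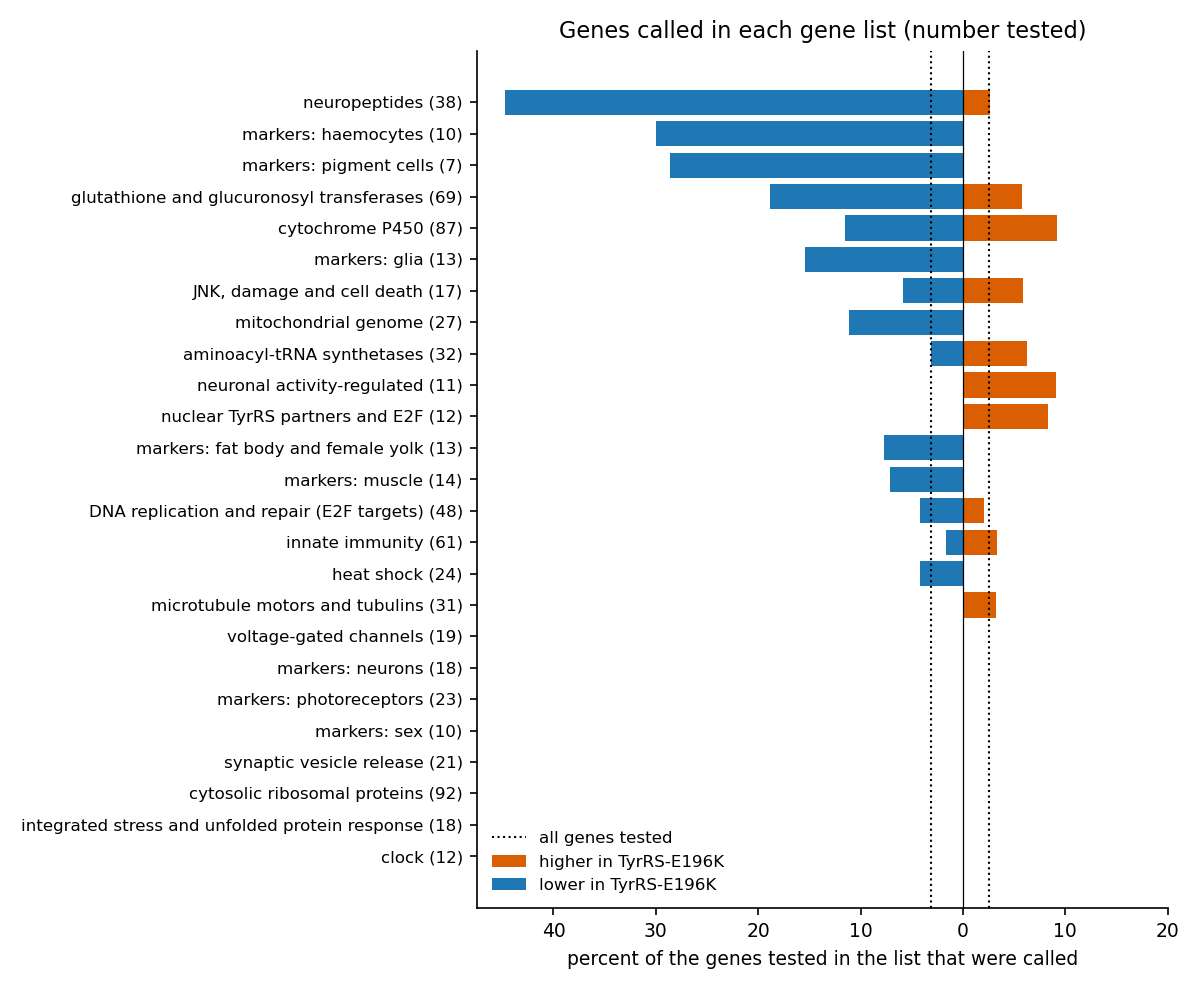
For each gene list, bars give the percent of its tested genes (number in brackets) that were called higher (right) or lower (left) in TyrRS-E196K than in TyrRS-E196K-NLS, and the dotted lines give 2.49% and 3.11% for all genes tested. Neuropeptides have the longest bar, with 17 of 38 lower, and 8 lists have no call.

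Markers of other cells were measured beside these results, since a brain can carry more or less of the tissue around it. Of 10 haemocyte markers, 3 were lower in TyrRS-E196K, 30% beside 5.6% of all genes. They were PPO1 and PPO2, the prophenoloxidases of crystal cells, and Hml, hemolectin. Hml was at 231, 126, 56.9 and 183 CPM against 427, 544, 499 and 552 CPM, with 271 to 362 CPM in control (-1.76, adjusted p = 0.0290), and PPO1 at 7.06 to 36.2 CPM against 116 to 216 CPM, with 117 to 138 CPM in control (-2.81, adjusted p = 0.0249). The summed level of the list was 422 to 847 CPM in TyrRS-E196K, 1280 to 1539 in TyrRS-E196K-NLS and 1035 to 1119 in control, and no marker of it was at 0. In TyrRS-WT the sum was 478.5 to 1170 CPM and in TyrRS-WT-NLS 647 to 1029 CPM, and both overlapped TyrRS-E196K. Without TyrRS-E196K replicate 4 the list had 0 calls by edgeR and 6 genes at an unadjusted p under 0.05, and with all libraries DESeq2 called 5.

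Of 13 fat body and yolk markers 12 lay below 0, with a median log2 difference of -0.31, and their summed level was 16170 to 37730 CPM in TyrRS-E196K, 42320 to 56780 in TyrRS-E196K-NLS and 31240 to 39750 in control, so that the mutant genotypes did not overlap. The one called was Rfabg, the lipid carrier apolipophorin, at 3397, 3314, 3358 and 5404 CPM against 6146 to 6620 CPM (-0.72, adjusted p = 0.00961). Of 13 glial markers 2 were lower, Inx2 (-0.42) and alrm (-0.53). Of 7 pigment cell markers 2 were lower, w and santa-maria (-0.25, lost in 3 of 18 alternatives). Since the vector also carries w, its level cannot be read as one of pigment cells. Of 14 muscle markers Act79B was lower (-0.65). The shares called were 7.69% of fat body and yolk, 15.4% of glial, 28.6% of pigment cell and 7.14% of muscle markers, beside 5.6% of all genes. No photoreceptor marker of 23 and no sex marker of 10 was called by edgeR, with 2 and 4 at an unadjusted p under 0.05 and 1 and 0 called by DESeq2. The part of these cells in the gene differences was not tested.

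The wild-type pair gave an independent set of libraries for the same change of signal at equal copy number. TyrRS-WT and TyrRS-WT-NLS were separate transgenic lines as well. Differences in their insertion sites and background cannot be told apart from the signal. There 194 genes were called between TyrRS-WT and TyrRS-WT-NLS (1.2%). Of the 905 genes called in the mutant pair, 88 were called in the wild-type pair as well, 9.72% of the former and 45.4% of the latter, with 73 in the same direction and 15 in the opposite one. At 1 CPM or more the sign was the same in 63.3% of the 701 genes, beside 53.8% of all genes, and in 71.4% of those lower in TyrRS-E196K and 52.4% of those higher. The contrasts themselves differed by test in 188 of the 905 genes (20.8%, beside 1.53% of all genes). The 905 were selected on the mutant difference that enters that test, so nothing is read from the higher share.

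Some genes of that shared set are named here after their values were seen. CG14024 was at 156 to 192 CPM in TyrRS-E196K and 63.9 to 77.9 CPM in TyrRS-E196K-NLS, and at 193 to 209 CPM in TyrRS-WT and 72.0 to 97.8 CPM in TyrRS-WT-NLS, with log2 differences of 1.31 and 1.31. Control, at 67.2 to 79.7 CPM, was near the genotypes with the disrupted signal. spartin, the fly gene of a hereditary spastic paraplegia protein, was at 26.3 to 26.8 against 9.39 to 12.7 CPM and at 34.9 to 37.7 against 11.6 to 15.1 CPM (1.23 and 1.44), with control at 27.9 to 32.1 CPM near the genotypes with the intact signal. SCAP, the escort of the lipid synthesis factor SREBP, differed by 0.99 and 0.52, and these differed from each other by test (adjusted p = 0.0331).

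In the other direction, CG33296 was at 36.6 to 45.7 against 192 to 254 CPM in the mutant pair and at 20.4 to 34.6 against 134 to 147 CPM in the wild-type pair (-2.39 and -2.25), with 29.0 to 55.1 CPM in control. The meiosis gene sunn (CG32088) differed by -4.94 and -4.03, the sugar transporter gene sut3 by -3.63 and -2.66, and its neighbour on the chromosome, the potassium channel gene CG8713, by -2.73 and -1.05, of which only the last pair of values differed by test (adjusted p = 0.00375). CG42342 differed by -0.92 and -0.88.

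The direction of the shared set followed the chromosomes. Of the 73 genes with the same direction, 21 lay on 2L, 29 on 2R, 16 on 3L and 6 on 3R, 1 had no position, and 0 lay on X or 4. Of the 15 with opposite directions, 7 lay on X and 3 on chromosome 4. The non-coding RNA CR44030 on chromosome 4 was at 0.0576 to 0.122 CPM in TyrRS-E196K and 0.0407 to 0.15 CPM in TyrRS-WT-NLS, and at 1.39 to 1.92 CPM in TyrRS-E196K-NLS, 1.42 to 1.94 CPM in TyrRS-WT and 1.33 to 1.55 CPM in control. Crk on chromosome 4, an adaptor of receptor signalling, was at no more than 107 and 116 CPM in the first 2 genotypes and at 147 to 181 CPM and 151 to 169 CPM in the next 2, with 93.1 to 114 CPM in control. CBP on X was at 22.5 to 25.9 CPM in TyrRS-E196K, 12.1 to 15.2 in TyrRS-E196K-NLS, 10.6 to 12.6 in TyrRS-WT and 15.4 to 19.99 in TyrRS-WT-NLS. The differences were -4.04, -0.73 and 0.82 in the mutant pair and 4.06, 0.53 and -0.67 in the wild-type pair.

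**Figure D4:**
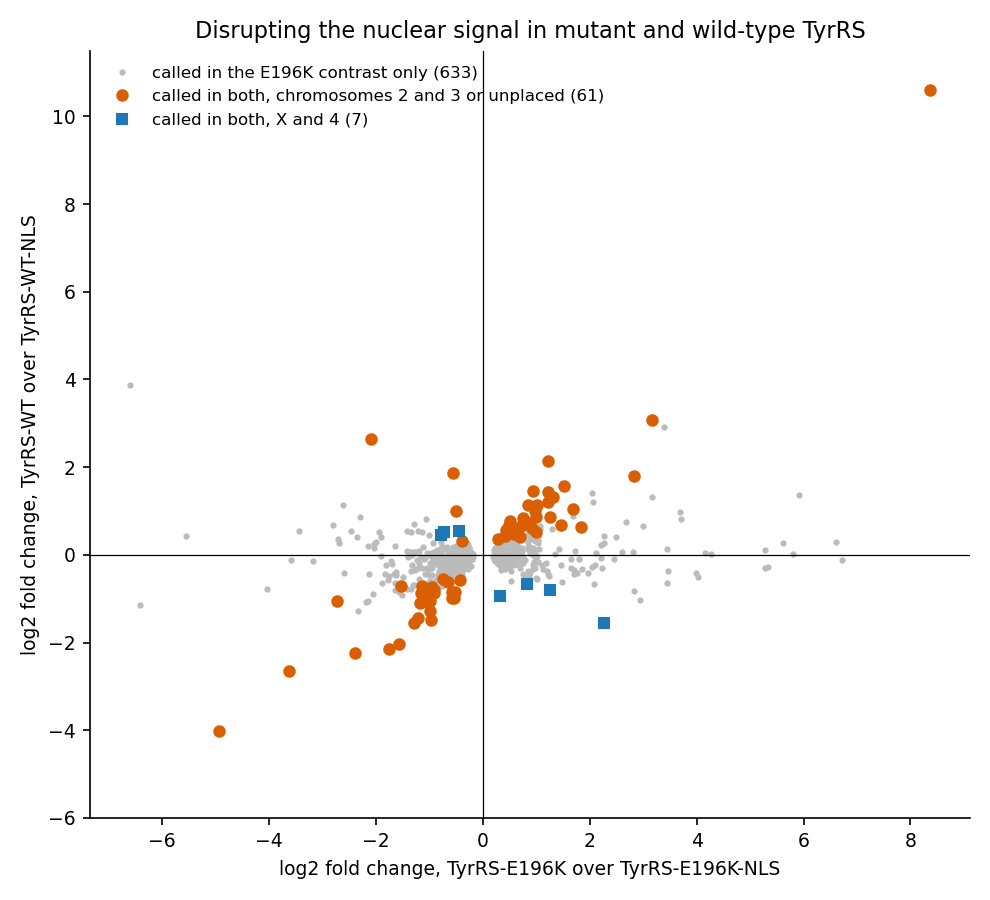
Each point is one of the 701 called genes at 1 CPM or more, with its log2 difference in the mutant pair on the x axis and in the wild-type pair on the y axis. All 7 genes of X and 4 called in both pairs (squares) have opposite signs, as do 4 of the 61 others called in both (circles), and 633 genes (small dots) were called in the mutant pair only.

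Called genes were also spread unevenly over the chromosomes in the mutant pair. At 1 CPM or more, 9.66% of genes on 2L and 11.1% on 2R were called, against 6.48% on 3L, 5.58% on 3R and 4.45% on X, and 10 of 83 genes (12.0%) on chromosome 4. Of the 149 genes in which TyrRS-E196K-NLS stood apart from all 13 other libraries, 37 lay on 2L and 58 on 2R. The window of 1 Mb with the highest share of calls was 2L from 20000001 to 21000000, where 18 of 67 genes were called (26.9%, beside a median of 6.41% over 117 windows with at least 20 genes). It holds CG31683, sNPF and lok. The insertion sites of the transgenes are not given in the sources used here, so a link between position and insertion was not tested.

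**Figure D5:**
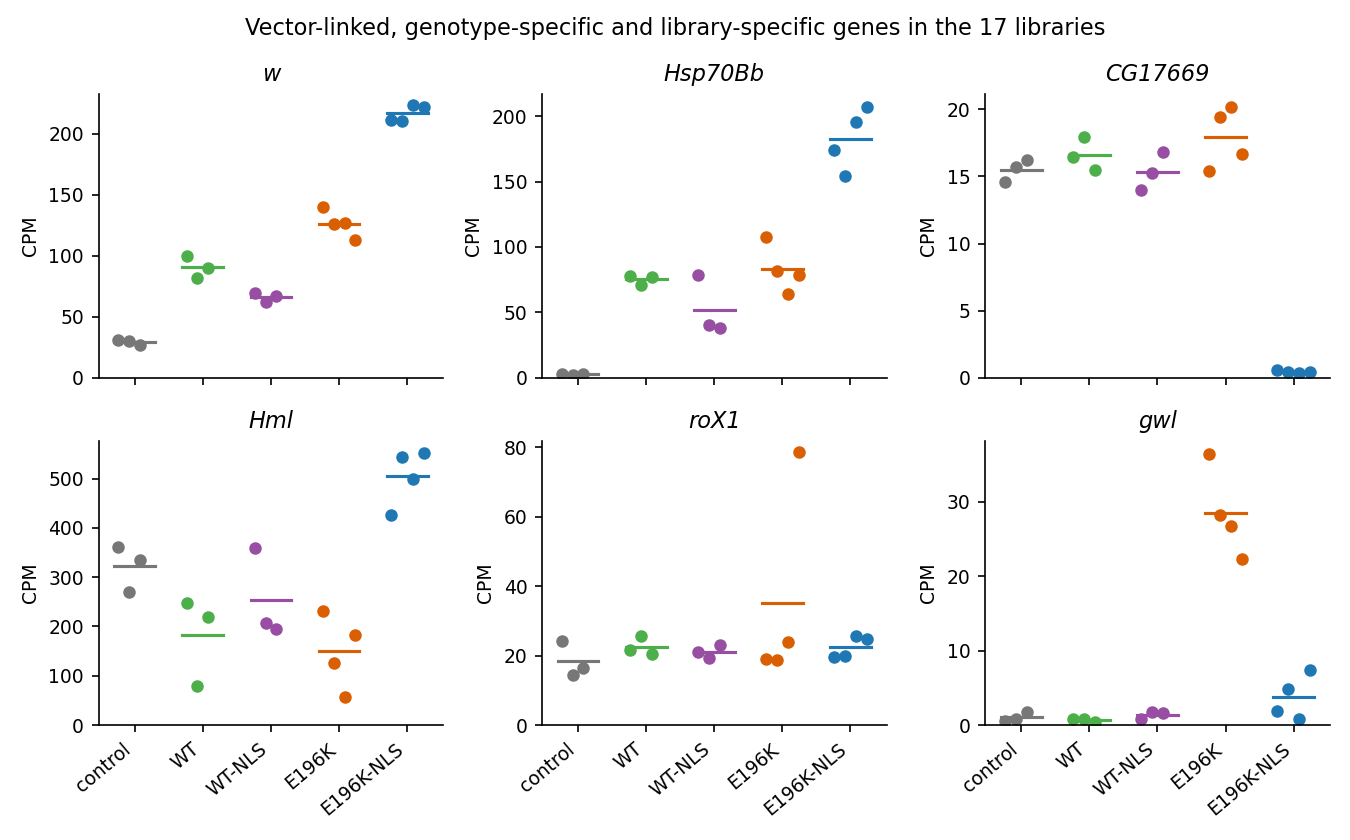
CPM of 6 genes in each of the 17 libraries, by genotype, with bars at group means. The vector-linked w and Hsp70Bb are highest in TyrRS-E196K-NLS, CG17669 is low in that genotype alone, Hml is lower in TyrRS-E196K than in TyrRS-E196K-NLS, roX1 is high in TyrRS-E196K replicate 4 alone, and gwl is high in TyrRS-E196K.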

How the data were processed

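Brain RNA was poly(A)-selected and sequenced in pairs of 75 bases without strand. The deposited counts are whole numbers of read pairs per gene that the authors made with Trimmomatic 0.32, TopHat2 2.0.12 and HTSeq 0.6.1 on build BDGP6 with Ensembl 84, and the authors took 3 outlier libraries out of their own tests. A deposited table of normalized values was not used. The 6 lines that are no gene (ambiguous reads were 4.87% to 6.32% and reads outside genes 2.57% to 3.80% of counts) were left out of the tests and library sizes. Of 17559 genes, 16163 had a count in at least 1 library.

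All 17 libraries were fitted together with edgeR 4.0.16 (TMM scaling, robust quasi-likelihood test, Benjamini-Hochberg adjustment over all genes tested, threshold 0.05) in R 4.3.3, with genotype as the only term, because the sequencing batch of each library is not given. This replaces the authors' DESeq2 model with batch. Adjusted p-values throughout are from edgeR. They measure the spread between the libraries of a genotype, and nothing says whether these came from separate crosses. Levels are CPM on TMM-scaled library sizes. One TyrRS-WT-NLS library could be placed in its genotype but not given a replicate number. Names and positions came from Ensembl 115, release BDGP6.54 of the same assembly, which held 17253 of the gene IDs.

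The genes named were the 10 largest rises and falls among called genes that reached a mean of 1 CPM and whose 4 and 4 libraries did not overlap, up to 3 called genes with the lowest p in each of 25 gene lists, and a few fixed genes (61 in all), with 49 more named after their values were seen. Gene lists and members were chosen with earlier results of these data known. Promoter sequences were not used here. On simulated counts for 16000 genes in this comparison, edgeR recovered 82% of 100 genes changed 2-fold and 59% of 100 changed 1.5-fold, with 7 false calls. The alternatives were DESeq2 1.42.0, its size factors, the filterByExpr filter, only the libraries compared, a replicate block, 1 surrogate variable (sva 3.50.0), each of 11 libraries left out and, added after seeing the data, edgeR without robust estimation.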

Additional observations from a re-analysis of the deposited data

Results flagged for a closer look

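Single libraries lay far from the other 3 of their genotype in some genes; by the test used, chance alone flags about 1 in 20 groups. TyrRS-E196K replicate 4 had 78.7 CPM of roX1 against 18.8 to 24.1, 2.97 CPM of roX2 against 0.254 to 0.384, 5404 CPM of Rfabg against 3314 to 3397 and 154 CPM of CG1667 (Sting) against 204 to 211. TyrRS-E196K replicate 3 had 79.2 CPM of AstC against 89.7 to 90.8 and 47.4 CPM of CG13641 (Srg1) against 32.8 to 34.8. TyrRS-E196K replicate 1 had 103 CPM of Hug against 75.3 to 78.1. TyrRS-E196K-NLS replicate 4 had 89.8 CPM of AstA against 77.3 to 78.7, and among genes near 0 in that genotype it had 0.0217 CPM of Cyp12d1-d and 0.0867 CPM of CG3117 against 0 in the others and 0.282 CPM of CG31683 against 0.137 to 0.15. TyrRS-E196K-NLS replicate 3 had 0.140 CPM of CG33648 against 0.0434 to 0.0562, and replicate 2 had 146 CPM of Jheh2 against 130 to 132.

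The difference between the genotypes with the intact and the disrupted signal was not the same in the mutant and the wild-type pair, by the interaction test of edgeR at an adjusted p under 0.05, in the following genes. The mutant pair also differed in copy number, and the lines of both pairs could differ in insertion sites and background. These cannot be told apart from the signal. Most of these genes were named for their difference in the mutant pair, which enters this test. That choice favoured passing it, so nothing is read from the number of genes listed. The genes are each given as the log2 difference in the mutant pair minus that in the wild-type pair. Among neuropeptides it was -1.49 for Pdf, -1.002 for AstC, -0.93 for Trissin, -1.87 for Ilp2, -1.98 for Ilp3, -0.56 for Dh44, -0.54 for AstA, -1.08 for SIFa, -0.80 for ITP, -0.65 for Nplp1 and -0.72 for natalisin. Among genes of immunity and damage it was -2.19 for CG30424 (cGlr2), 1.56 for Rel, -0.84 for CG18107 and 0.63 for puc. Among detoxification genes it was -1.01 for Cyp4ac1, 1.20 for CG17322, -0.71 for CG15661, 0.66 for Ugt58Fa, -0.91 for Jheh3 and -0.59 for Jheh2.

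For genes low or high in 1 mutant genotype it was 6.84 for CG3117, 6.32 for CG4650, 5.34 for CG31683, 5.17 for CG17669, 3.88 for CG33648, 1.64 for CG6695, -10.47 for Su(Ste):CR42418, -3.26 for CG34208, -3.99 for CG5418, -1.67 for CG8713 and -3.07 for CG2444. For genes linked to the vector, whose copy number differs within the mutant pair and not within the wild-type pair, it was -1.23 for w and -1.66 for Hsp70Bb. Among genes called in both pairs it was 0.47 for SCAP, -1.26 for Crk, 1.49 for CBP and -8.10 for CR44030.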

How the results depend on the processing

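DESeq2 called 1447 genes between TyrRS-E196K and TyrRS-E196K-NLS, 883 of them shared with the 905 of edgeR, and 1627 for TyrRS-E196K against control, 328 for TyrRS-WT against TyrRS-WT-NLS and 548 for the difference of the contrasts; on simulated counts it made 38 false calls where edgeR made 7. Fitting only the libraries compared gave 664 calls for TyrRS-E196K against control. With 1 library left out, the calls ran from 620 (without TyrRS-E196K-NLS replicate 2) to 957 in the mutant pair, from 440 (without control replicate 3) to 1030 for TyrRS-E196K against control, where leaving out TyrRS-E196K replicate 2 gave 677, and from 479 (without control replicate 3) to 771 for TyrRS-E196K-NLS against control. In the wild-type pair they ran from 182 to 210, and in the difference of the contrasts from 201 to 279. The other alternatives, filterByExpr (1032 calls), DESeq2 size factors (911), only the libraries compared (1010), 1 surrogate variable (870) and no robust estimation (921), kept the count of the mutant pair within 1.5 times.

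The labels do not say whether the replicate numbers pair the samples, and the main fit used no pairing. Deviations of same-numbered libraries of the 2 mutant genotypes correlated at -0.19, 0.41, 0.40 and 0.28 for replicates 1 to 4. Their mean was 0.22, against -0.07 over the 12 other pairs. Replicates 2, 3 and 4 correlated best with their own number, and replicate 1 did not. The source of this shared deviation was not tested. With a replicate block in the fit, edgeR called 864 genes, 775 of them shared with the fit without it.

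Of 88 called genes named, 65 kept the call in all 18 alternatives and 23 lost it in at least 1, and none changed sign. Signs turned in 3 genes that were not called. Dp, at -0.0048, became 0.0015 with DESeq2 size factors and 0.0017 with DESeq2, and ran from -0.025 to 0.023 with 1 library left out. roX1 ran from -0.12 to 0.85 and roX2 from -0.20 to 1.68 in those fits, with the lowest value of both without TyrRS-E196K replicate 4. Genes with few reads, such as those near 0 in a whole genotype, have fold changes set by counting error and the prior count.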
